A study of Mus musculus with 8 samples.

Results

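The Ifi200 genes encode interferon-inducible proteins of the mouse, many of which bind DNA. The 10 genes described here, Ifi203, Ifi204, Ifi205, Ifi206, Ifi207, Ifi208, Ifi209, Ifi211, Ifi213 and Ifi214, were taken by gene name from a table of 55801 genes, where each name occurs once. All 10 passed the filter of a mean level of at least 1 TPM (a share of all transcripts, corrected for gene length) over the samples, as did 12189 genes in all. Ifi214 was just inside the filter at a mean of 2.15 TPM, and Ifi211 was the highest at 315.

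RNA was sequenced from peritoneal macrophages of male C57BL/6 mice, 6 to 8 weeks old, drawn into the peritoneum by thioglycollate, in 4 groups of 2 samples. NC cells received vehicle, given in the labels as DMSO. LPS cells received vehicle for 0.5 h and then LPS, the bacterial lipopolysaccharide sensed by Toll-like receptor 4, at 100 ng/ml for 4 h. C498 cells received the small molecule C498 at 15 µM without LPS, and C498+LPS cells received C498 at 15 µM for 0.5 h and then LPS at 100 ng/ml for 4 h. All groups share the strain and the thioglycollate treatment, and the cells are an elicited population taken from the cavity, so cells other than macrophages may be among them. The labels do not say whether the samples of a group came from separate mice or cultures, so p-values measure the spread between these samples, which may be technical.

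Members of this family belong to the PYHIN, or HIN-200, group. Most carry an amino-terminal pyrin domain, through which proteins assemble with one another, and at least 1 carboxy-terminal HIN domain, which binds double-stranded DNA. The best known relative, Aim2, senses DNA in the cytosol and recruits the adaptor Pycard (ASC) to form an inflammasome, and Ifi204, a mouse counterpart of human IFI16, has been linked to DNA sensing upstream of Sting1 and interferon beta. In macrophages the family is known as part of the response to type I interferon, which LPS induces through Toll-like receptor 4.

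The 10 genes lie in a single cluster on chromosome 1 (GRCm38, GENCODE M21), from the start of Ifi206 at 173468485 to the end of Ifi205 at 174031810, a span of 563 kb. In the order of their coordinates they are Ifi206, Ifi214, Ifi213, Ifi209, Ifi208, Ifi207, Ifi204, Ifi211, Ifi203 and Ifi205. Ifi209 and Ifi208 lie on the plus strand and the other 8 on the minus strand. Aim2 flanks the cluster next to Ifi206, and Mndal, Ifi202b and the pseudogene Ifi203-ps lie within it. The annotated bounds of Mndal overlap those of Ifi211 and Ifi203 on the same strand.

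Promoter windows of 300 bases, 250 before the start site and 50 after it, were available for 9 of the 10 members (RefSeq, GRCm38.p6), with 2 windows for Ifi203. Interferon-activated transcription factors bind the interferon-stimulated response element (ISRE), whose core was searched on both strands as GAAA, any 2 bases and GAAA. The core was present in windows of 8 of these 9 members, against 3.44% of 32851 mouse promoter windows. The stretches of 40 bases around it are shown because the 8 genes share the core, in 2 forms, and differ to varying degrees beside it, with Ifi208 and Ifi213 identical over the stretch. Each is written 5′ to 3′ on the strand of the gene, the capitals mark the core, and the number in front is the position of the first base of the core from the start site, -1 being the base before it.
Ifi203, -35: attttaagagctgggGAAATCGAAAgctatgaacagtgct
Ifi205, -134: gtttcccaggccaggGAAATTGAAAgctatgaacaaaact
Ifi206, -40: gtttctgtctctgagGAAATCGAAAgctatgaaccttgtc
Ifi207, -41: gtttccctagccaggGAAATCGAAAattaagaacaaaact
Ifi208, -58: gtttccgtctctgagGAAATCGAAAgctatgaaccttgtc
Ifi211, -37: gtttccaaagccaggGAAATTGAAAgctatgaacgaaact
Ifi213, -73: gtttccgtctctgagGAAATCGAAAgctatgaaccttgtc
Ifi214, -79: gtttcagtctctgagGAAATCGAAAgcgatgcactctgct
Ifi205 and Ifi211 share 1 form of the core, and the other 6 share the other. Ifi209 held no exact match. Its window aligned with that of Ifi214 differs within the core by the substitution G1T, with the base of Ifi214 first, the position counted from 1 at the 5′ end of the core, and the base of Ifi209 last. The aligned stretch of Ifi209 is printed in lower case.
Ifi209: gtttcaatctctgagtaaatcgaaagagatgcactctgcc

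The windows fall into sets of near copies. Over 300 bases, Ifi209 and Ifi214 were 95.7% identical, Ifi208 and Ifi213 94.0%, Ifi206 and Ifi208 93.0%, Ifi206 and Ifi213 87.7%, and Ifi207 and Ifi211 87.0%. No other pair of members exceeded 64.3%, and Ifi205 reached 63.0% with Ifi211. The windows of Ifi205 and Ifi208 are shown in full, since Ifi205 had the largest change with LPS and Ifi208 the largest change with C498 before LPS among the members. That of Ifi205 lies at chr1:174031706-174032005 on the minus strand and holds a further match of the ISRE core, on the opposite strand, beginning 24 bases into the transcript.
Ifi205: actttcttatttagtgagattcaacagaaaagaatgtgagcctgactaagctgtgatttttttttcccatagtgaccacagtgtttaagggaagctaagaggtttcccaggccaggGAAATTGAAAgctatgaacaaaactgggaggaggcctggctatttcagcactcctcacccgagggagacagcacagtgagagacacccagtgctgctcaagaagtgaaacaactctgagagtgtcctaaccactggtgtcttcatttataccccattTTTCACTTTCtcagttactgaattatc
The window of Ifi208 lies at chr1:173673415-173673714 on the plus strand and holds 1 match.
Ifi208: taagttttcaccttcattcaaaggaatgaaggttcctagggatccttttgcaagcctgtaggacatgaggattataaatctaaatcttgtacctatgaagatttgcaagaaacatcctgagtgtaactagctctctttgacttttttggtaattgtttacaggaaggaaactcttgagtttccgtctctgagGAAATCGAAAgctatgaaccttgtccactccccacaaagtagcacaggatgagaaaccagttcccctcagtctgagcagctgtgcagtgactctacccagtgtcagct
The gamma-activated site, searched on both strands as TTC, any 3 bases and GAA, was in 0 of the 9 members and in 8.30% of all windows. The NF-kappaB motif was in 2 members, Ifi203 and Ifi209, in windows without an ISRE core, and in 8.46% of all windows. Each match describes the letters of the window and no binding was measured.

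Several members resemble one another in their transcripts as well, and short reads may then be shared between genes. Of the distinct words of 150 bases, the read length, in the annotated transcripts of Ifi211, 46.4% also occur in another gene, 32.3% in Ifi205. The share was 12.6% for Ifi205, 9.28% for Ifi209, 6.77% for Ifi204, 5.79% for Ifi206, 3.99% for Ifi214, and at most 1.5% for Ifi208, Ifi203, Ifi213 and Ifi207. Ifi209 and Ifi214 share such words with each other only, and Ifi214 averaged 2.15 TPM against 95.3 TPM for Ifi209. How reads were divided between these genes, and between Ifi211, Ifi205 and Ifi204, is uncertain, and their levels carry that limit. The overlap of Mndal with Ifi211 and Ifi203 adds to it, and the sources do not state whether counting used strand.

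The labelled cell type was checked by its markers. All 8 macrophage markers (Adgre1, Cd68, Csf1r, Itgam, Lyz2, Mertk, Cd14 and Fcgr1) were present, and their summed level was 20099 to 20590 TPM in NC, 17938 to 18472 in LPS, 15939 to 16075 in C498 and 12420 to 14208 in C498+LPS. The 5 fibroblast markers summed to 150.2 to 192 TPM in NC, 176 to 200.5 in LPS, 633 to 750.0 in C498 and 618 to 911 in C498+LPS. The 7 B cell markers summed to 18.9 to 26.5, 26.1 to 27.4, 43.5 to 55.3 and 43.1 to 122 TPM in the same order. These sums were lower for macrophages, and higher for fibroblasts and B cells, in both samples of each C498 group than in its control without C498. Lyz2 makes up most of the macrophage sum and Ighm most of the B cell sum, and single markers differed from it. Cd14 was higher with C498 (686 and 663 TPM against 235 and 252 in NC, and 1797 and 1794 in C498+LPS against 1352 and 1250 in LPS), Cd68 overlapped between C498 and NC, and the B cell marker Fcmr was not higher in either C498 group. All 5 fibroblast markers lay above their controls in both C498 groups. The 8 neutrophil markers summed to 76.4 to 131 TPM in NC, 93.1 to 119 in LPS, 52.0 to 54.6 in C498 and 71.6 to 81.2 in C498+LPS. That sum was lower in both samples of each C498 group than in its control, and S100a8 made up most of it. Elane and Ngp were 0 throughout, and 5 of the 8 markers stayed below 1 TPM in every sample. S100a9 was 0 in NC and LPS but reached 0.86 TPM in C498+LPS, and Ly6g reached 2.62 TPM in C498 replicate 2. Camp was lower in C498+LPS than in LPS. The sums of T cell, dendritic cell, mast cell and eosinophil markers were at most 22.9 TPM each, and with C498 that of dendritic cells was higher (up to 5.11 against 2.16 TPM) and that of eosinophils lower (up to 0.92 against 2.12 TPM). The 4 mesothelial markers summed to 3.67 to 4.33 TPM in NC, 4.32 to 4.65 in LPS, 12.7 to 18.6 in C498 and 13.9 to 21.4 in C498+LPS. Replicates correlated across genes at r = 0.962 in NC and 0.970 to 0.981 in the other groups. NC replicate 1 was above NC replicate 2, and LPS replicate 1 above LPS replicate 2, for all 10 members.

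In vehicle-treated cells the family was already expressed. Its summed level was 720.0 and 557 TPM in the NC samples (mean 638 ± 115, SD, n = 2). Ifi204 made up 31.7% of that sum, Ifi211 25.8% and Ifi207 12.5%, so that these 3 genes held 70.1% of it. Ifi205 made up 3.88%. By mean level, Ifi204 (203 TPM) and Ifi211 (165 TPM) led and did not overlap with each other or with the next gene. Ifi207 (79.8), Ifi209 (54.5), Ifi203 (49.8), Ifi213 (31.9), Ifi206 (24.8) and Ifi205 (24.8) followed, and each of these overlapped with its neighbour in the order. Ifi208 at 4.69 TPM and Ifi214 at 0.71 TPM were the lowest, each apart from the gene above it.

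**Figure D1:**
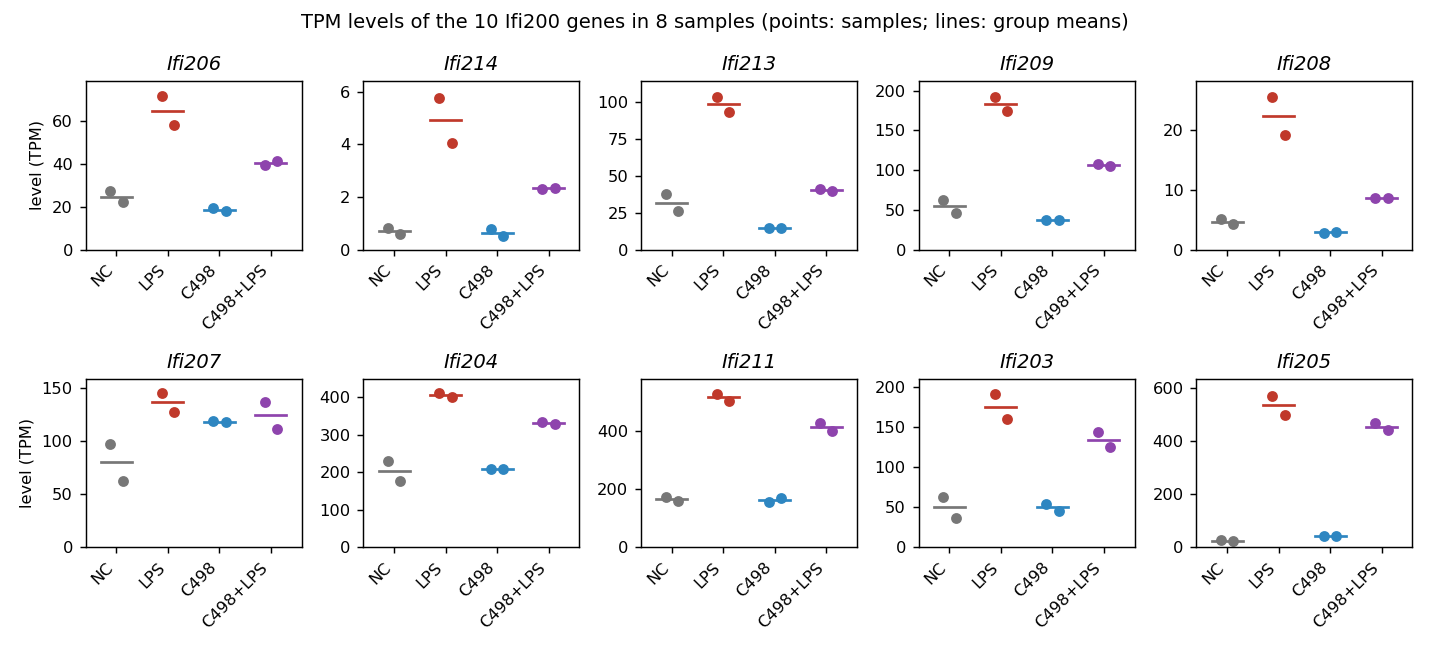
Level in TPM (y axis, starting at 0, own scale in each panel) of the 10 genes in the 8 samples (x axis, groups; points are samples and lines group means), in their order on the chromosome. LPS samples lie above NC samples for every gene, and C498+LPS samples lie below LPS samples for every gene other than Ifi207.

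With LPS the family rose from 638 to 2142 ± 147 TPM in sum (SD, n = 2), with 2246 and 2038 TPM in the LPS samples. In LPS vs NC, 9 of the 10 members were upregulated by at least 2-fold with an adjusted p no higher than 0.05 (limma, both criteria together), where 5.55% of the tested genes were. By adjusted p alone 10 were higher, against 9.84% of the tested genes, and in 10 both LPS samples lay above both NC samples, against 19.3%. The median log2 change of the members was 1.70, beside -0.17 over all tested genes. As these are bulk samples, more cells that express a gene and more RNA of it per cell cannot be told apart.

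Ifi205 had the largest change of the family. It stood at 26.6 and 22.9 TPM in NC and at 571 and 499 TPM in LPS. The log2 change was 4.38 (SE 0.11, 95% interval 4.12 to 4.64, adjusted p = 1.43e-06). Ifi205 thereby moved from the eighth place in the family to the top, and from 3.88% to 25.0% of its summed TPM. In LPS it overlapped with Ifi211, so these highest genes were not separated.

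The 3 most abundant members before LPS changed less than Ifi205. Ifi211 went from 172 and 158 TPM to 529 and 504 TPM, a log2 change of 1.64 (SE 0.09, adjusted p = 4.17e-05). Ifi204, the family member linked to interferon induction by DNA, went from 228 and 177 TPM to 411 and 399 TPM. Its log2 change was 1.01 (SE 0.12, 95% interval 0.72 to 1.29, adjusted p = 0.00127), just over the fold threshold, and it fell under it without NC replicate 2 (0.82), without LPS replicate 1 (0.99) and with quantile normalization (0.89). Ifi207 was at 96.9 and 62.7 TPM in NC and at 145 and 127 TPM in LPS. Its log2 change of 0.79 (SE 0.20, 95% interval 0.31 to 1.27, adjusted p = 0.0247) missed the fold threshold, and without NC replicate 1 it was 1.10 and passed both criteria. The adjusted p of Ifi207 exceeded 0.05 without NC replicate 2 and without any 1 of the LPS or C498 samples, and was at most 0.142.

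The remaining 6 members lay between these extremes, at log2 changes of 1.36 to 2.02. Ifi203 went from 63.1 and 36.5 TPM to 190.2 and 159.5 TPM (log2 change 1.84, SE 0.24, adjusted p = 0.00190). Ifi209 went from 62.7 and 46.2 TPM to 192 and 175 TPM (log2 change 1.75, SE 0.14, adjusted p = 0.000223). Ifi213 went from 37.4 and 26.4 TPM to 103 and 93.4 TPM (log2 change 1.61, SE 0.16, adjusted p = 0.000619). In each of these the LPS samples were more than 2-fold above the higher NC sample. Ifi206 went from 27.3 and 22.2 TPM to 71.7 and 58.3 TPM (log2 change 1.36, SE 0.15, adjusted p = 0.000811). Ifi208 went from 5.10 and 4.27 TPM to 25.4 and 19.1 TPM (log2 change 2.02, SE 0.19, adjusted p = 0.000387). Ifi214, the least expressed, went from 0.84 and 0.58 TPM to 5.78 and 4.07 TPM (log2 change 1.78, SE 0.25, adjusted p = 0.00235). Since 1 TPM is added before the log, the fold change of Ifi214 is understated: the ratio of its mean TPM was 6.94. Ifi214 was below 1 TPM in NC and C498 and passed the filter through the LPS and C498+LPS groups, so it had to differ to be tested and lends no support to the counts it enters.

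**Figure D2:**
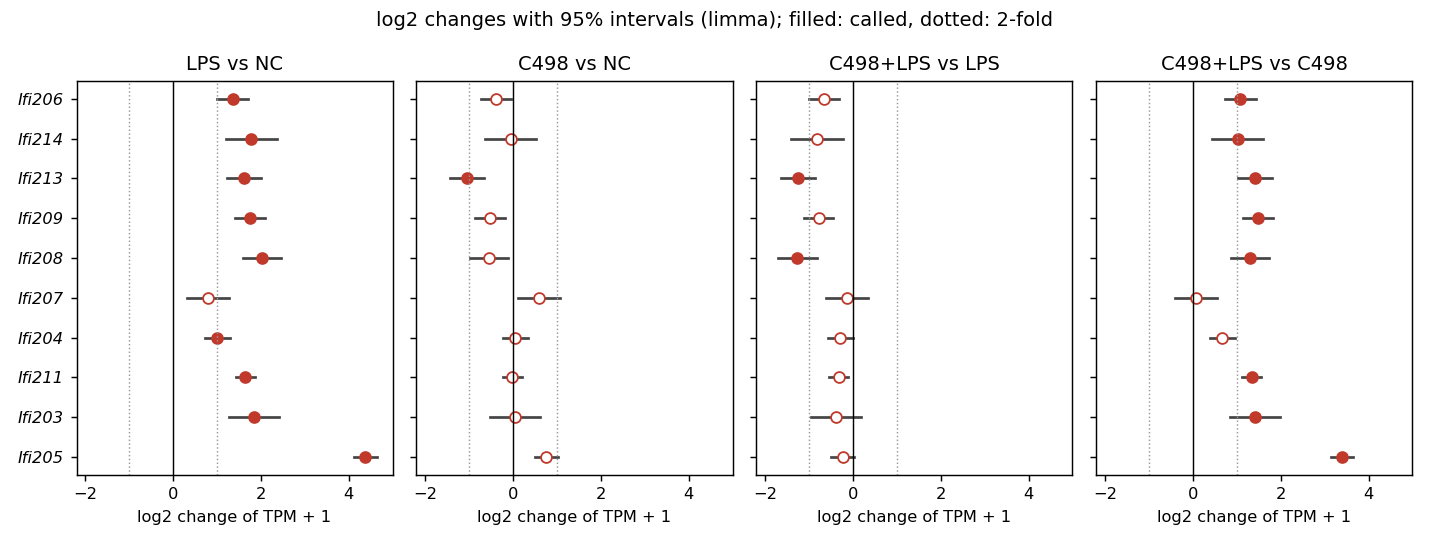
log2 change of TPM + 1 (x axis) with 95% intervals for the 10 genes in their order on the chromosome, in 4 comparisons. Filled points passed both criteria in limma, which 9, 1, 2 and 8 genes did from left to right, and dotted lines mark a 2-fold change.

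C498 without LPS left the summed level of the family at 653 and 658 TPM (mean 655 ± 2.89, SD, n = 2), beside 638 ± 115 TPM in NC. In C498 vs NC, 1 of the 10 members was downregulated at both criteria (Ifi213), where 1.36% of the tested genes were, and 0 were upregulated, where 5.64% were. By adjusted p alone 1 was lower (6.19% of the tested genes) and 1 higher, Ifi205 (9.29%). Both C498 samples lay above both NC samples in 2 members (Ifi205 and Ifi207), against 29.3% of the tested genes, and below them in 4 (Ifi206, Ifi208, Ifi209 and Ifi213), against 28.4%. These shares are near those of all genes. The median log2 change was -0.04, beside 0.01 over all tested genes, and 6 members had an unadjusted p under 0.05 in limma, as did 32.0% of the tested genes. In the same comparison 5 of the 5 fibroblast markers rose at both criteria (median log2 change 2.00) and the median of the macrophage markers was -0.27, and their part in the values of the Ifi200 genes was not tested.

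Ifi213 stood at 14.8 and 14.7 TPM in C498, against 37.4 and 26.4 TPM in NC. Its log2 change was -1.04 (SE 0.16, 95% interval -1.43 to -0.66, adjusted p = 0.00815). Without NC replicate 1 the change was -0.80 and under the fold threshold, and without C498 replicate 1 or replicate 2 the adjusted p was 0.0710 and 0.0689. Ifi205 stood at 43.1 and 41.5 TPM in C498, above its NC samples, with a log2 change of 0.75 (SE 0.11, 95% interval 0.49 to 1.01, adjusted p = 0.00639), below the fold threshold, and its adjusted p was up to 0.0629 without either C498 sample.

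The other 8 members did not pass the adjusted p in the fit described, although 4 of them did under some alternatives. Ifi209 (37.0 and 37.2 TPM in C498), Ifi208 (2.75 and 3.0 TPM) and Ifi206 (19.3 and 18.0 TPM) had log2 changes of -0.52, -0.55 and -0.38, with adjusted p of 0.0511, 0.0909 and 0.123. With centred samples and with quantile normalization these 3 passed 0.05, with a lowest adjusted p of 0.00565, 0.0187 and 0.0219. Ifi207, at 119 and 117 TPM in C498, had a log2 change of 0.59 (adjusted p = 0.0946), and its lowest adjusted p was 0.0141, without NC replicate 1. Ifi211 (154 and 171 TPM), Ifi204 (209 and 209 TPM), Ifi203 (54.1 and 45.6 TPM) and Ifi214 (0.80 and 0.50 TPM) overlapped with NC. Their log2 changes were between -0.05 and 0.06. The 95% interval was -0.24 to 0.19 for Ifi211 and -0.52 to 0.62 for Ifi203, so that a change of the size seen for Ifi209 was outside it for Ifi211 and close to its limit for Ifi203.

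When C498 preceded LPS, the family reached a sum of 1710 and 1601 TPM (mean 1656 ± 76.9, SD, n = 2), below both LPS samples. In C498+LPS vs LPS, 2 of the 10 members, Ifi208 and Ifi213, were downregulated at both criteria, where 2.18% of the tested genes were. By adjusted p alone 4 were lower (Ifi206, Ifi208, Ifi209 and Ifi213), against 7.70% of the tested genes. Both C498+LPS samples lay below both LPS samples in 9 members, against 30.9%, with Ifi207 as the exception. The median log2 change was -0.52, beside 0.01 over all tested genes, and 7 members had an unadjusted p under 0.05 in limma, as did 31.2% of the tested genes. In the same comparison 4 of the 5 fibroblast markers rose at both criteria (median log2 change 2.00) and the median of the 8 macrophage markers was -0.63, and the part of this shift in the levels of the Ifi200 genes was not tested.

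Ifi208 had the largest decrease, from 25.4 and 19.1 TPM in LPS to 8.52 and 8.58 TPM in C498+LPS. Its log2 change was -1.27 (SE 0.19, 95% interval -1.71 to -0.83, adjusted p = 0.00516), and without LPS replicate 1 it was -1.07 with an adjusted p of 0.0539. Ifi213 fell from 103 and 93.4 TPM to 41.3 and 39.97 TPM, with a log2 change of -1.25 (SE 0.16, 95% interval -1.64 to -0.87, adjusted p = 0.00339), and it was called whichever sample was left out. For Ifi208 the level in C498+LPS still lay above that in NC, and for Ifi213 it lay close above it, at 41.3 and 39.97 against 37.4 and 26.4 TPM.

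A weaker decrease was seen in the neighbouring genes. Ifi209 fell from 192 and 175 TPM to 107 and 105 TPM (log2 change -0.78, SE 0.14, adjusted p = 0.0121). Ifi206 fell from 71.7 and 58.3 TPM to 39.7 and 41.5 TPM (log2 change -0.66, SE 0.15, adjusted p = 0.0242). Both missed the fold threshold, and without any 1 of the LPS or C498+LPS samples their adjusted p exceeded 0.05, reaching 0.0963 for Ifi209 and 0.152 for Ifi206 without LPS replicate 1. Without either C498 sample that of Ifi206 exceeded 0.05 as well. Ifi214 was at 2.29 and 2.36 TPM against 5.78 and 4.07 TPM in LPS, with a log2 change of -0.82 (SE 0.25, adjusted p = 0.0663), and it passed both criteria with quantile normalization (-1.02).

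The genes that carried most of the family's RNA after LPS differed less from LPS than Ifi213 did, and none of them passed the adjusted p in the fit described. Ifi205 was at 469 and 441 TPM (log2 change -0.23, 95% interval -0.49 to 0.03, adjusted p = 0.207). Ifi211 was at 429 and 399 TPM (log2 change -0.32, 95% interval -0.54 to -0.10, adjusted p = 0.0554). Ifi204 was at 334 and 329 TPM (log2 change -0.29, 95% interval -0.57 to -0.0044, adjusted p = 0.155). All 3 were below both LPS samples. Under alternatives the lowest adjusted p was 0.0390 for Ifi211 and 0.0209 for Ifi204, both without NC replicate 1, and that of Ifi205 stayed above 0.05. Ifi203 was at 144 and 124 TPM (log2 change -0.38, 95% interval -0.95 to 0.19, adjusted p = 0.342). Ifi207 was at 137 and 111 TPM and overlapped with its LPS samples (log2 change -0.14, 95% interval -0.62 to 0.34, adjusted p = 0.702). Ifi205 made up 27.5% of the family's summed TPM, Ifi211 25.0% and Ifi204 20.02%, so the order of these leading genes by mean was the same as in LPS.

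The response to LPS among cells given C498 was taken from C498+LPS vs C498. There, 8 of the 10 members were upregulated at both criteria, where 2.52% of the tested genes were, and 9 by adjusted p alone, against 4.51%. Samples did not overlap in 9 members, against 17.4% of the tested genes. The median log2 change was 1.32, beside -0.18 over all tested genes. Ifi205 again had the largest change (log2 change 3.40, SE 0.11, adjusted p = 8.88e-06), and Ifi209, Ifi203, Ifi213, Ifi211, Ifi208, Ifi206 and Ifi214 followed at 1.49 to 1.02. The number called was 5 without C498 replicate 1 and 4 without C498 replicate 2, where Ifi203, Ifi208 and Ifi214 in both cases and Ifi206 in the latter exceeded 0.05 in adjusted p. Ifi203 and Ifi214 also exceeded it without either C498+LPS sample. Ifi204 (log2 change 0.66, adjusted p = 0.0131) missed the fold threshold. Ifi207 did not pass the adjusted p (log2 change 0.06, 95% interval -0.42 to 0.54, adjusted p = 0.873), and the C498+LPS samples, at 137 and 111 TPM, lay on either side of the C498 samples.

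Whether the response to LPS differed with C498 was tested by the interaction of C498 and LPS. Of the 10 members 0 were called in limma, where 0.394% of the tested genes were called as lower, and 3 had an unadjusted p under 0.05, as did 11.1% of the tested genes. These were Ifi205 (-0.98, 95% interval -1.35 to -0.62, adjusted p = 0.0639), Ifi207 (-0.73, 95% interval -1.41 to -0.06, adjusted p = 0.414) and Ifi208 (-0.72, 95% interval -1.34 to -0.10, adjusted p = 0.390). Without NC replicate 1, Ifi205 passed both criteria at -1.09 (adjusted p = 0.0452). Its adjusted p was also under 0.05, below the fold threshold, with a replicate block (0.0205), a filter of 5 TPM (0.0484) and centred samples (0.0487), and its range over all alternatives was 0.0205 to 0.314. For Ifi205 and Ifi207 the C498 samples were above the NC samples before LPS, whereas for Ifi208 they were below them, so the smaller ratio came with different levels at the start. All 10 estimates were negative, at -0.98 to -0.21 with a median of -0.39, beside 6449 of 12189 tested genes with a median of -0.03, and all rest on the same NC and LPS samples.

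The decrease with C498 before LPS is described here in the order of the genes on the chromosome, by a split into 2 sets of 5 that was drawn after the values were seen and was not tested. Among the 5 members at the Aim2 end (Ifi206, Ifi214, Ifi213, Ifi209 and Ifi208), C498+LPS stood at 38.5% to 62.4% of the LPS mean, with a median of 47.2%. Among the other 5 (Ifi207, Ifi204, Ifi211, Ifi203 and Ifi205) it stood at 76.6% to 90.9%, with a median of 81.8%. Without LPS the same groups stood at 46.2% to 91.5% and at 98.5% to 171% of NC. The 3 other tested HIN-200 genes of the locus do not keep to these ranges. The pseudogene Ifi203-ps and Mndal, which lie among the latter 5, stood at 47.7% and 65.2% of LPS, and Aim2, beside Ifi206, at 70.6%. By promoter window, Ifi206, Ifi208 and Ifi213 form 1 set of near copies and stood at 62.4%, 38.5% and 41.4% of LPS. Ifi209, without an exact ISRE core, and Ifi214, with it, form another and had log2 changes of 1.75 and 1.78 in LPS vs NC and ratios of mean TPM of 3.37 and 6.94, the latter over a mean of 0.71 TPM, so the order depends on the scale. They stood at 57.8% and 47.2% of LPS with C498 before it, and reads may be shared between them. Among the latter 5, Ifi207 and Ifi211 share 87.0% of the promoter window and had log2 changes of 0.79 and 1.64 with LPS.

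**Figure D3:**
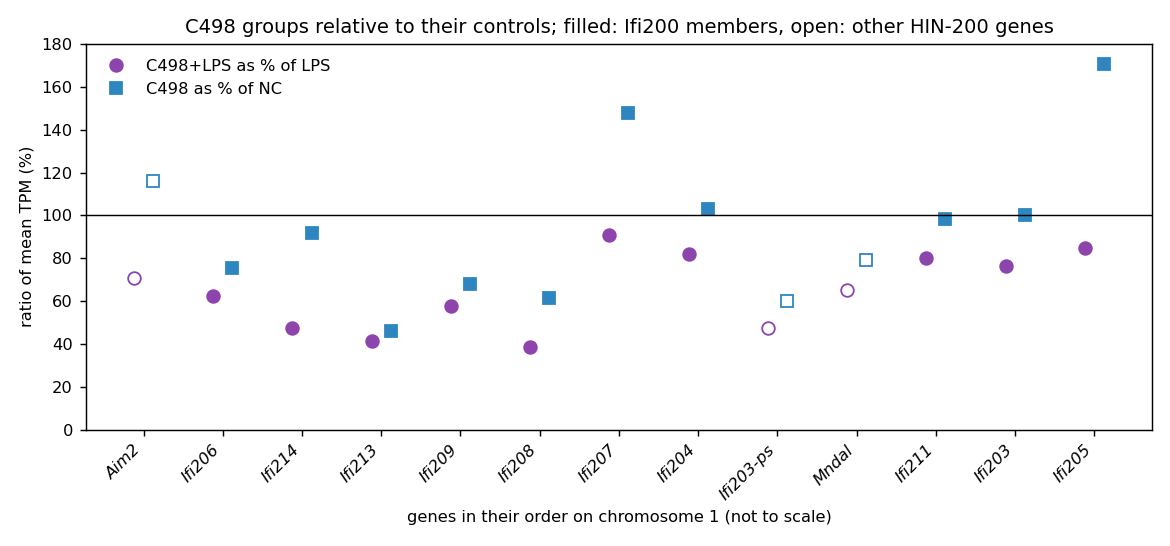
Mean TPM of a C498 group as a percentage of its control without C498 (y axis) for the genes in their order on chromosome 1 (x axis, not to scale), with C498+LPS against LPS as circles and C498 against NC as squares, filled for the 10 Ifi200 members and open for Aim2, Ifi203-ps and Mndal. The 5 members from Ifi206 to Ifi208 lie at 38.5% to 62.4% of LPS and the 5 from Ifi207 to Ifi205 at 76.6% to 90.9%, whereas Ifi203-ps at 47.7%, Mndal at 65.2% and Aim2 at 70.6% lie outside the range of the members around them.

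Of the other HIN-200 genes, Aim2, Mndal and the pseudogene Ifi203-ps were tested. Mndal (235 ± 12.4 TPM in LPS against 74.6 ± 16.8 in NC, SD, n = 2) and Ifi203-ps (6.20 ± 0.51 against 1.08 ± 0.68 TPM) rose at both criteria in LPS vs NC, with log2 changes of 1.66 and 1.83. Ifi203-ps, like Ifi214, passed the filter through the groups given LPS, so its call adds no support. Aim2, the inflammasome sensor, rose by adjusted p alone, from 34.1 and 31.6 TPM to 51.6 and 55.8 TPM (log2 change 0.69, adjusted p = 0.0114). With C498 before LPS, Mndal fell by adjusted p alone (log2 change -0.61, adjusted p = 0.0346), and Aim2 (34.0 and 41.9 TPM, log2 change -0.50, adjusted p = 0.0566) and Ifi203-ps (log2 change -0.87, adjusted p = 0.0832) did not pass. Aim2 in C498+LPS was at 37.9 ± 5.59 TPM and in C498 at 38.1 ± 4.89 TPM (log2 change -0.01). Ifi202b, known as an antagonist of Aim2, was listed at 0 in all NC and LPS samples and at no more than 0.14 TPM in any.

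Among 29 tested interferon-stimulated genes of a list of 30, 20 were upregulated at both criteria in LPS vs NC (5.55% of the tested genes) and 0 downregulated (6.68%), with a median log2 change of 1.48. With C498 before LPS (C498+LPS vs LPS), 3 were downregulated at both criteria, namely Ifit3b (-1.502), Ddx58, an RNA sensor (-1.12), and its relative Dhx58 (-1.10), where 2.18% of the tested genes were, and 20 were lower by adjusted p alone, against 7.70%, with a median of -0.66. The Ifi200 members had medians of 1.70 and -0.52 in the same comparisons, and all tested genes -0.17 and 0.01. In C498 vs NC, 2 of the 29 were upregulated and 1 downregulated at both criteria, against 5.64% and 1.36% of the tested genes. By adjusted p alone 10 were lower there and 4 higher, against 6.19% and 9.29%, with a median log2 change of -0.28. In the interaction 2 were lower at both criteria, against 0.394%. Those 2 were Cxcl10, a chemokine (-2.55), and Rsad2, an antiviral enzyme (-1.54).

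Interferon signalling genes had a median log2 change of 0.24 with LPS. Of 18 tested genes of 20 listed, 4 rose at both criteria with LPS, namely the kinase Jak2 (2.33), the inhibitors Socs1 (2.60) and Usp18 (1.63) and the transcription factor Irf1 (1.58), and the interferon gamma receptor chain Ifngr1 fell (-1.03), where 5.55% and 6.68% of the tested genes did. Usp18 fell (-1.02) and Irf8, a transcription factor of the macrophage lineage, rose (1.43) in C498+LPS vs LPS, with a median of -0.44 over the 18, where 2.18% of the tested genes fell and 5.39% rose. By adjusted p alone 8 of the 18 were lower, against 7.70% of the tested genes, and 1 was higher. Irf8 was at 118 and 93.0 TPM in LPS and at 299 and 270 TPM in C498+LPS. Irf1 and Socs1 were upregulated at both criteria in C498 vs NC, where 5.64% of the tested genes were. By adjusted p alone 5 of the 18 were lower there and 2 higher, against 6.19% and 9.29%, with a median log2 change of -0.21. Ifnb1, which encodes interferon beta, was below the filter at 0.27 and 1.60 TPM in LPS and 1.10 and 0.65 TPM in C498+LPS, and was 0 in both NC samples, so it was not tested.

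Cytosolic DNA sensing and inflammasome genes were described in the same way. Of 28 genes found, Aim2 among them, 27 were tested, and 8 rose and 2 fell at both criteria with LPS, where 5.55% and 6.68% of the tested genes did, with a median log2 change of 0.40, so the count that fell is near the share of all genes. Those that rose were Il1b (6.47), Nlrp3 (3.47), Nfkb1 (2.08), Il18 (1.47), Casp4 (1.29), Trex1 (1.17), Rela (1.13) and Cgas (1.09), the last being the enzyme that makes the second messenger for Sting1. Pycard, the adaptor that Aim2 recruits, fell (-1.24) from 204 and 278 TPM to 89.2 and 112 TPM, as did Xrcc6 (-1.18). Sting1 fell by adjusted p alone, from 26.3 and 33.0 TPM to 16.4 and 15.8 TPM (log2 change -0.83, adjusted p = 0.00950). Of the 27, 1 fell at both criteria, the kinase Ikbke, from 118 and 115 TPM to 65.0 and 51.0 TPM (log2 change -1.001, adjusted p = 0.00633), and 0 rose in C498+LPS vs LPS, where 2.18% and 5.39% of the tested genes did. The count that fell is near the share of all genes. By adjusted p alone 5 of the 27 were lower, against 7.70% of the tested genes. A further 3 were higher, against 1107 of the 12189 tested genes. The median over the list was -0.07. In C498 vs NC, Il1b rose (1.01) and Pycard fell (-1.17), where 5.64% and 1.36% of the tested genes did. In the interaction Il1b was lower at both criteria (-1.36, adjusted p = 0.0412), against 0.394% of the tested genes, and no other gene of the list was called.

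**Figure D4:**
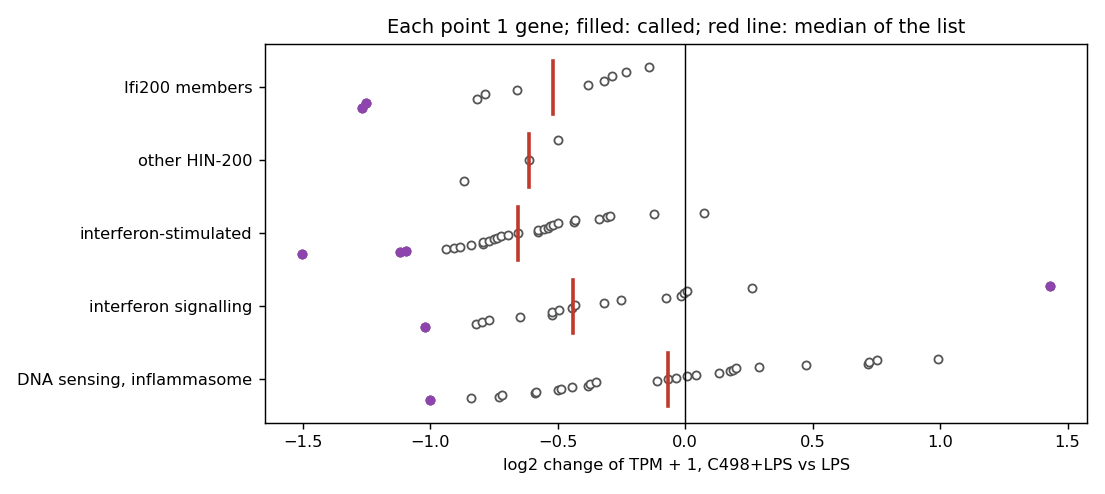
log2 change of TPM + 1 in C498+LPS vs LPS (x axis) for each tested gene of the Ifi200 members and of 4 lists (rows); filled points passed both criteria and red lines are medians. The median was -0.52 for the Ifi200 members, -0.66 for interferon-stimulated genes, -0.44 for interferon signalling and -0.07 for DNA sensing and inflammasome genes.

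The genes whose level over the 8 samples was most like the mean log2 level of the 10 members were Ifit2 (Pearson r = 0.999), Nod2 (0.997), Gm16867 (0.997), Adora2a (0.995) and Il15ra (0.995). Ifit2, an interferon-stimulated gene, stood at 139 and 96.3 TPM in NC, 587 and 526 in LPS, 103 and 104 in C498, and 368 and 319 in C498+LPS. The 8 samples form 4 groups, so these values describe the shared pattern of the groups. Among the members, Ifi204 (0.990), Ifi211 (0.987) and Ifi214 (0.986) were nearest to the mean of the family, and Ifi213 (0.910) and Ifi207 (0.651) were the farthest from it. Each member is itself part of that mean, so its r is partly set in advance. Ifi214 also passed the filter through the groups given LPS.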

How the data were processed

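RNA of 8 samples was measured by paired-end sequencing of TruSeq libraries on an Illumina NovaSeq. For read filtering the authors used fastp, for alignment HISAT2, for assembly StringTie and for quantification RSEM, and they deposited TPM per gene and sample. Versions, genome build and strandedness are not given in the sources used here. The authors tested counts with DESeq2, which are not analysed here. All samples sum to the same total by construction, so depth is unknown and counting error is seen only through the replicates. From 17528 to 18975 genes were above 0 per sample. The 4 columns of group means were not used.

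Values were analysed as log2(TPM + 1), for genes averaging 1 TPM or more, with limma 3.58.1 in R 4.3.3 (lmFit, eBayes with a trend), with 1 mean per group over all 8 samples. A call needed a 2-fold change or more and an adjusted p (Benjamini-Hochberg, over all 12189 genes) of 0.05 or less. Fold changes are on the log2(TPM + 1) scale and understate those of low genes. An exact two-sided permutation test of 2 samples against 2 cannot give a p below 0.333. The comparisons share groups. The steps were tested on simulated data. Alternatives were another pseudocount, filter, scaling, variance trend and set of samples, a replicate block, each sample left out, and, chosen after seeing the data, no fold threshold.

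The members and gene lists were chosen with earlier results of these data known. Named genes are the 10 members, their neighbours, listed genes called or central to a pathway, and the 5 other genes with the highest r to the members' mean. Coordinates are from GENCODE M21 (GRCm38), promoters from RefSeq (GRCm38.p6). Sequences were handled with Biopython 1.88, tables with pandas 2.3.3 and numpy 2.4.6, and figures with matplotlib 3.10.9.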

Additional observations from a re-analysis of the deposited data

How the results depend on the processing

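The number of members called in LPS vs NC was 9 and stayed within 1.5 times that under every alternative run. In C498 vs NC the number called, 1, was 0 with only the groups compared in the fit, 0 to 1 when single samples were left out, and 2 without a fold threshold. In C498+LPS vs LPS it was 2, 1 to 2 with single samples left out and 4 without a fold threshold. In C498+LPS vs C498 it was 8, and 4 to 8 with single samples left out, and in the interaction it was 0, and 0 to 1.

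The median log2 change of the members was 1.70 in LPS vs NC, 1.86 with samples centred on the median gene and 1.49 to 1.87 with single samples left out, and it was -0.04 in C498 vs NC, -0.18 with quantile normalization and -0.25 to 0.046. In C498+LPS vs LPS it was -0.52, -0.38 among the 9 members with a mean of at least 5 TPM and -0.66 to -0.40, in C498+LPS vs C498 1.32 and 1.54 with centred samples, and in the interaction -0.39 and -0.67 to -0.20. The cause of these shifts was not tested, except that fewer members entered under the stricter filter and fewer samples when some were left out. No called value changed sign. The median in C498 vs NC did without NC replicate 1, as did 13 values of single members not called, at adjusted p of 0.239 or more.

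For single members, 298 of 318 values of the 20 called results stayed called, and of 785 values in all 3 became called. Same-numbered samples correlated in their deviations at r = 0.0397 to 0.168 over the 6 pairs of groups, not all above 0.1, and the labels name no shared animal or day, so pairing was not established. With a replicate block 9, 1, 2, 8 and 0 members were called in the comparisons in the order above, as without it, and the adjusted p of Ifi207 in C498 vs NC moved from 0.0946 to 0.0318. With 2 samples a group, low genes such as Ifi214 are the least certain, and depth is unknown.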
